A study of Mus musculus with 13 samples.

Results

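The genes described here are 10 markers of the macrophages of mouse liver, chosen by name: Clec4f, Vsig4, Cd5l, Marco and Timd4, which mark resident Kupffer cells, and Csf1r, Adgre1, C1qa, C1qb and C1qc, which mark macrophages more widely. They were 10 of 53392 genes in the count table, and all 10 were among the 14317 genes with enough counts to be tested. RNaseq was done on whole-liver RNA of 13 female mice, 8 to 14 weeks old, which all carried Albumin-Cre and, at the Rosa26 locus, loxP-stop-loxP-rtTA, both homozygous, and were fed a liquid diet with 28% of its calories from ethanol for 4 weeks. Of these, 4 were ASAH- mice given doxycycline (Dox) in the diet (Etoh-Dox, no inducible transgene), 5 were ASAH+ mice given Etoh-Dox (transgene TRE-ASAH1, switched on by Dox) and 4 were ASAH+ mice given Etoh without Dox (the same transgene, not induced). Albumin-Cre restricts the rtTA activator, and so the transgene, to hepatocytes, and acid ceramidase, the product of Asah1, hydrolyses ceramide in lysosomes. No group without ethanol was sequenced among the samples used here. The titles of the ASAH+ samples state the opposite Dox treatment from their descriptions and induction labels, so the groups were taken from the latter. The series' design text also gives 4 mice for each group, whereas the labels place 5 in ASAH+ Etoh-Dox, and all 5 were used.

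Kupffer cells are the resident macrophages of the liver and lie within the sinusoids, where they take up particles, bacteria and dying cells from portal blood. They depend on signals through the CSF1 receptor, and in mice CLEC4F and TIM4 (the product of Timd4) are used to tell resident cells from macrophages that arrived from blood monocytes. Macrophages also make C1q, the recognition unit of the classical complement pathway, whose partners C1r and C1s come largely from hepatocytes. In alcoholic liver disease, gut-derived endotoxin reaching these cells is a known stimulus of inflammation. In whole-liver RNA a lower level from fewer cells cannot be told apart from less RNA per cell.

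Library totals ran from 17819486 to 35358711 counts, with a median of 24454043. Asah1 was at 49.4 ± 6.78 CPM (the count as a share of the TMM-scaled library total, SD, n = 4) in the ASAH- Etoh-Dox mice, 12755 ± 2796 CPM (n = 5) in the ASAH+ Etoh-Dox mice and 46.5 ± 1.70 CPM (n = 4) in the ASAH+ Etoh mice, which matches the labels used. Albumin mRNA (Alb) was between 64720 and 110750 CPM in every mouse, as in liver. The 10 macrophage genes were counted in every mouse, with between 138 counts (Timd4) and 6478 counts (Cd5l). Replicate 3 of the ASAH- Etoh-Dox mice stood apart from the rest: it had the highest level of the 13 mice for all 10 genes, at a library total of 24909341 counts. Values without this mouse are given beside the comparisons that use it.

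The 5' ends of the genes are shown because their levels moved together from mouse to mouse. RefSeq promoters of 300 bases (250 before to 50 after the start site, GRCm38.p6) were found for 7 of the 10 genes: Clec4f, Vsig4, Cd5l, Marco, Timd4, C1qb and C1qc. They were searched on both strands for GAGGAA, the core of the motif of PU.1, the lineage factor of macrophages, for TGCTGA, the core recognised by MAF factors, and for the TATA box letters TATAAA. In none of the 7 promoters did matches to different motifs overlap. GAGGAA or its reverse TTCCTC was present in 5 of the 7 promoters, against 28.3% of 32851 promoters of the same length, TGCTGA or its reverse in 5 of 7 against 19.5%, and TATAAA or its reverse in 0 of 7 against 13.6%. A match is a description of letters and not evidence of binding. In the 4 promoters below, written 5' to 3' on the gene's own strand, capitals mark the PU.1 core on either strand.
Vsig4 (chrX:96293389-96293688, minus strand): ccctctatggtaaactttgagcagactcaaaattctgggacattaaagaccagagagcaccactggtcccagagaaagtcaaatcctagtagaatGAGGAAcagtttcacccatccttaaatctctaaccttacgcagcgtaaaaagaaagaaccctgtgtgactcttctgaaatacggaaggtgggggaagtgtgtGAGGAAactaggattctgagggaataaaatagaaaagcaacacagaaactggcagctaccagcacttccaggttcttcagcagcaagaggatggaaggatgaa
Marco (chr1:120504975-120505274, minus strand): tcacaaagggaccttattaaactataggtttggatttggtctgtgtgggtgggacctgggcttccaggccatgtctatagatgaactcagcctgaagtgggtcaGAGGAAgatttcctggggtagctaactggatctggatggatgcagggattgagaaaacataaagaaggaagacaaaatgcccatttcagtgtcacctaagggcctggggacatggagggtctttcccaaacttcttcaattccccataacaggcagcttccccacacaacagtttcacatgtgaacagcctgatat
C1qb (chr4:136886151-136886450, minus strand): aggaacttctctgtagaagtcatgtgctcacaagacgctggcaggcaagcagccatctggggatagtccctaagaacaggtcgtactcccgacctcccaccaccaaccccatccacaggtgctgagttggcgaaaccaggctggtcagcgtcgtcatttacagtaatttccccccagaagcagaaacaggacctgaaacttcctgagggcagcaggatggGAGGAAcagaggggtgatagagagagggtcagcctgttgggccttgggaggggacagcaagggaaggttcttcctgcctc
C1qc (chr4:136892865-136893164, minus strand): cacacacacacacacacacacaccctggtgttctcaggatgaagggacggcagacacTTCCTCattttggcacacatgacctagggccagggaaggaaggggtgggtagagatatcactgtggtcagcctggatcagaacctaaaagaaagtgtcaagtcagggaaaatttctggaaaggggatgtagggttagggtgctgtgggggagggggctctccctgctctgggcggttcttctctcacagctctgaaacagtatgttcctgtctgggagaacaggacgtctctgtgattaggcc
The first base of the core lay at -155 and -53 bases from the start site in Vsig4, at -146 in Marco, at -30 in C1qb and, reversed, at -193 in C1qc. Cd5l held it reversed at -66, together with MAF letters, in either orientation, at -54 and -46. Clec4f and Timd4 held MAF letters without the PU.1 core, at -199 in Clec4f and, reversed, at -150 and -44 in Timd4.

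The abundance of the genes was compared per kilobase of transcript (CPM divided by the median length of the coding transcripts), over all 13 mice. Cd5l, a secreted scavenger protein of macrophages, was the most abundant at a mean of 67.7 ± 24.4 CPM per kb. Clec4f, a lectin found on Kupffer cells, followed at 47.6 CPM per kb, above C1qb in 8 of 13 mice. C1qb at 45.1 and C1qa at 44.7 CPM per kb did not differ beyond their spread (C1qb higher in 7 of 13 mice, exact sign-flip permutation, two-sided p = 0.528). C1qc was lower at 32.98 CPM per kb, below C1qa in 13 of 13 mice. Vsig4, the complement receptor of Kupffer cells, stood at 27.9 and Csf1r, the receptor of CSF1 and IL34, at 15.1 CPM per kb. Marco, a scavenger receptor for bacteria, at 11.3 CPM per kb, and Adgre1, which encodes the surface antigen F4/80, at 7.81 CPM per kb did not differ beyond their spread (adjusted exact p = 0.251). Timd4, a receptor for phosphatidylserine on dying cells, was the least abundant at 4.45 CPM per kb. The other 7 of the 9 neighbouring pairs differed beyond their spread over mice, with exact p-values adjusted over the 9 pairs between 0.000549 and 0.0358. The order that set the pairs came from these same levels. The test also leaves out the error of dividing by a transcript length, so small gaps such as that of Clec4f and C1qb are not settled.

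C1qa, C1qb and C1qc lie side by side on the minus strand of chromosome 4 within 18.7 kb (chr4:136880129-136898803, GRCm38). The genomic spans of the 5 Kupffer cell markers do not overlap another annotated gene. Csf1r overlaps Hmgxb3 on the other strand and Mir6983, and although the libraries were strand-specific, whether counting used strand is not given in the sources used here.

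Among the Kupffer cell markers, Clec4f was at 121, 111, 183 and 146 CPM in the ASAH- Etoh-Dox mice (replicates 1 to 4). It was at 147, 149, 84.9, 106 and 84.6 CPM in the ASAH+ Etoh-Dox mice and at 109, 89.9, 99.0 and 98.4 CPM in the ASAH+ Etoh mice. All ASAH- Etoh-Dox mice were above all ASAH+ Etoh mice, while the ASAH+ Etoh-Dox mice fell on both sides of the ASAH+ Etoh mice. Cd5l was at 122, 127, 264 and 147 CPM in the ASAH- Etoh-Dox mice, at 177, 182, 90.8, 165 and 92.1 CPM in the ASAH+ Etoh-Dox mice and at 122, 93.4, 99.4 and 109.7 CPM in the ASAH+ Etoh mice. The 5 ASAH+ Etoh-Dox mice again fell apart, with replicates 1, 2 and 4 above and replicates 3 and 5 below all ASAH+ Etoh mice.

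Marco varied the most. It was at 7.90, 14.3, 91.5 and 19.4 CPM in the ASAH- Etoh-Dox mice, at 26.7, 22.1, 10.8, 34.1 and 12.6 CPM in the ASAH+ Etoh-Dox mice and at 13.6, 7.04, 6.54 and 16.9 CPM in the ASAH+ Etoh mice. The highest mouse, ASAH- Etoh-Dox replicate 3, had 13.99 times the level of the lowest mouse, and the groups overlapped. Vsig4 ranged from 24.7 to 66.9 CPM and Timd4 from 6.16 to 18.6 CPM over the 13 mice. Timd4 was even in the ASAH+ Etoh mice, at 8.21 ± 0.437 CPM (SD, n = 4), against 11.7 ± 4.92 CPM (n = 4) in the ASAH- Etoh-Dox mice and 9.20 ± 2.85 CPM (n = 5) in the ASAH+ Etoh-Dox mice.

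Among the wider macrophage genes, C1qa was at 44.3, 49.98, 84.2 and 50.2 CPM in the ASAH- Etoh-Dox mice, at 67.7, 59.4, 32.2, 43.8 and 36.4 CPM in the ASAH+ Etoh-Dox mice and at 36.6, 26.6, 35.4 and 37.9 CPM in the ASAH+ Etoh mice. Csf1r was at 59.6, 61.6, 105 and 80.0 CPM, at 79.7, 89.9, 42.9, 70.0 and 44.3 CPM and at 50.3, 48.0, 54.1 and 55.0 CPM in the same order of groups. For both genes the ASAH- Etoh-Dox and ASAH+ Etoh mice did not overlap, and the ASAH+ Etoh-Dox mice overlapped both. C1qb ranged from 33.1 to 87.9 CPM, C1qc from 23.1 to 75.5 CPM and Adgre1 from 14.6 to 52.0 CPM over the 13 mice.

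**Figure D1:**
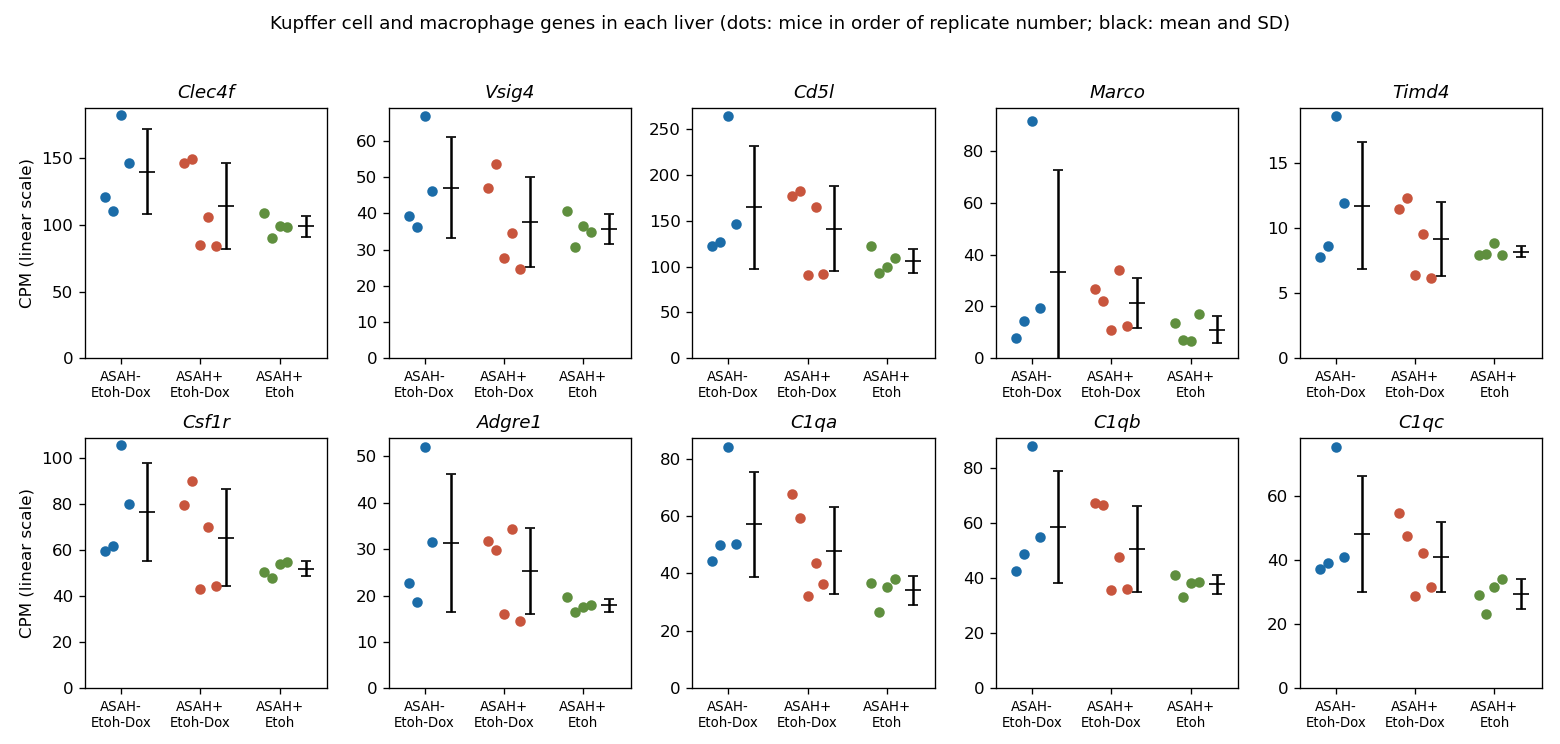
Level of each of the 10 genes in CPM (linear axis) in the 13 livers, by group; dots are mice in order of replicate number, and the black mark and bar give the mean and SD, cut off at 0 for Marco in the ASAH- Etoh-Dox mice. In each panel the third ASAH- Etoh-Dox mouse is the highest, and replicates 3 and 5 of the ASAH+ Etoh-Dox mice lie below the other 3 mice of their group.

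Some mice were high or low for nearly every gene. ASAH- Etoh-Dox replicate 3 ranked first of 13 for all 10 genes, at 1.68 times (Clec4f) to 2.64 times (Adgre1) the median mouse for 9 of them and at 6.40 times for Marco. Replicates 1 and 2 of the ASAH+ Etoh-Dox mice ranked between 2 and 5 for every gene. Replicates 3 and 5 of that group ranked between 9 and 13. The lowest mouse was one of these for Clec4f, Vsig4, Cd5l, Timd4, Csf1r and Adgre1, and an ASAH+ Etoh mouse for Marco and the 3 C1q genes. Other mice changed rank more between genes. ASAH+ Etoh-Dox replicate 4 ranked from 2 to 10, ASAH+ Etoh replicate 3 from 6 to 13 and ASAH- Etoh-Dox replicate 1 from 5 to 11. The ASAH+ Etoh mice had the smallest SD of log2 CPM of the 3 groups for 10 of 10 genes, against 39.1% of all 14317 genes tested. Without ASAH- Etoh-Dox replicate 3 this held for 6 of 10 genes, against 36.4% of all genes, and the ASAH- Etoh-Dox mice had the smallest SD for Cd5l, Marco, C1qa and C1qc. With all mice, the coefficient of variation was lowest in the ASAH+ Etoh mice for the 9 genes other than Marco. Their coefficient of variation was 5.32 to 16.1% for these 9 genes, against 22.9 to 47.6% in the ASAH- Etoh-Dox mice and 26.5 to 36.8% in the ASAH+ Etoh-Dox mice for the same genes. For Marco it was 46.1% in the ASAH+ Etoh, 45.8% in the ASAH+ Etoh-Dox and 118% in the ASAH- Etoh-Dox mice. Without replicate 3 the ASAH- Etoh-Dox mice had a coefficient of variation of 4.61% (C1qc) to 27.2% (Adgre1) for the 9 genes and of 41.6% for Marco. Since these genes rise and fall together, they are not 10 independent observations of the spread, and no test was made.

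**Figure D2:**
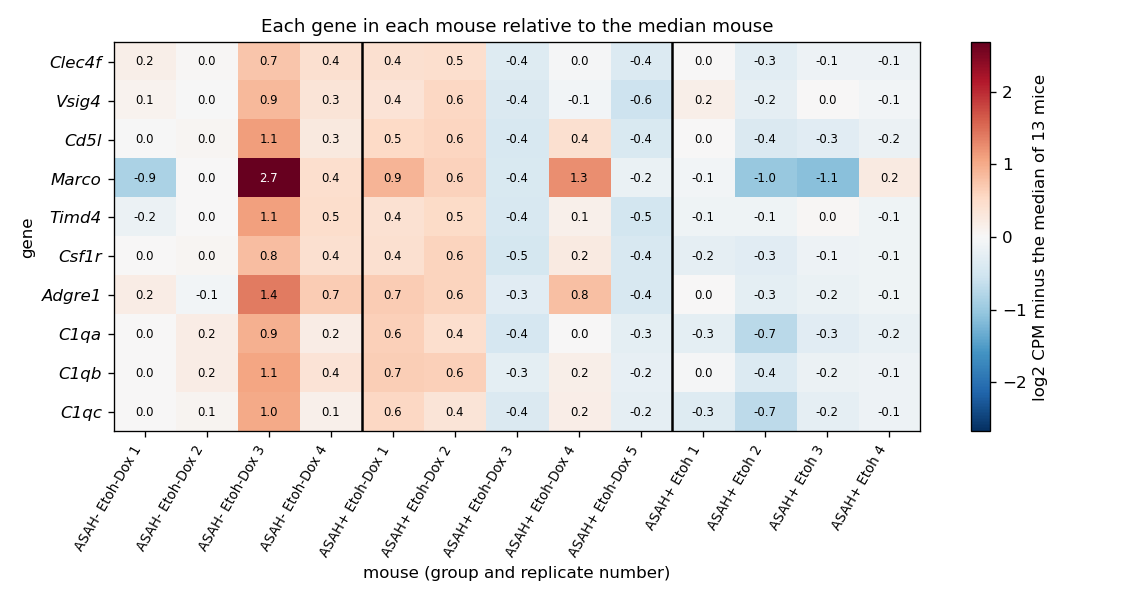
Log2 CPM of each gene (rows) in each mouse (columns, grouped) minus the median of the 13 mice; red is above and blue below the median. Columns are nearly uniform in colour, with ASAH- Etoh-Dox replicate 3 the reddest, and Marco spreads more widely than the other 9 genes.

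Over the 13 mice the log2 CPM of the 45 pairs of genes correlated with a Pearson r of 0.674 (Vsig4 and Marco) to 0.981 (C1qa and C1qc), with a median of 0.914. The median Spearman rho was 0.857. Permutation p-values adjusted over the 45 pairs were under 0.05 for 45 pairs by Pearson and 44 by Spearman, the largest being 0.0126 and 0.0649. After subtraction of the group means the median r was 0.914, without the 2 mice farthest from the median of the first gene 0.847, and without ASAH- Etoh-Dox replicate 3 0.864, with a lowest r of 0.423. The relation therefore also held within groups.

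The 3 C1q chains, which assemble into 1 protein, had pairwise r of 0.957 to 0.981, and the SD of their log2 ratios was 0.09 to 0.13. The ratio of Vsig4 to Clec4f was nearly fixed, with the highest mouse 1.28 times the lowest. Marco was the loosest: the SD of its log2 ratio to the other 9 genes was 0.63 to 0.83, against 0.09 to 0.30 for the 36 pairs without it. Its ratio to Clec4f ran from 0.0654 in ASAH- Etoh-Dox replicate 1 to 0.501 in replicate 3 of the same group, a 7.67-fold range. The lowest Marco count was 141, which has a relative counting error of 8.42%.

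**Figure D3:**
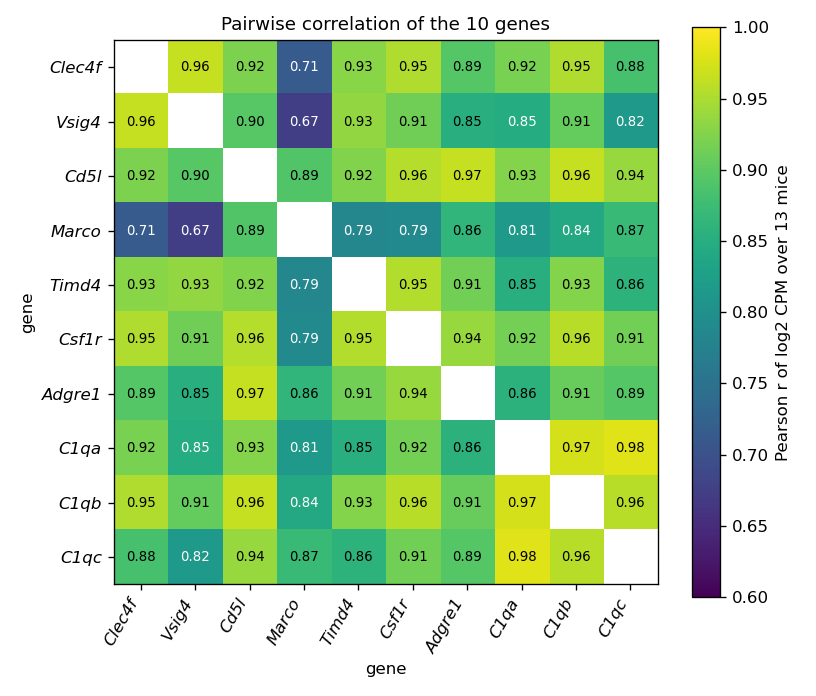
Pearson r of log2 CPM over the 13 mice for each pair of the 10 genes (both axes); yellow is 1.00 and dark blue 0.60. The 3 C1q genes form the brightest block, and the row and column of Marco are the darkest.

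Other genes were ranked by their Pearson r with the mean log2 CPM of the 5 Kupffer cell markers, as a description over 13 mice that share libraries and depth. That mean was 6.47 in ASAH- Etoh-Dox replicate 3 and 4.77 to 5.72 in the other mice, so this mouse weighs heavily. The r values of these genes and of the lists below are given with this mouse only. Of 11105 genes with a mean log2 CPM above 1, 60 genes other than the 10 had an r above 0.9, and the median r was -0.015. The 8 most alike were Pld4, a nuclease of the endolysosome (r = 0.977), Tyrobp, a signalling adaptor of myeloid receptors (0.971), Laptm5, a lysosomal membrane protein of blood cells (0.967), Lgmn, a lysosomal endopeptidase (0.965), Themis2 (0.957), Tbc1d9 (0.956), Msn, which links membrane to actin (0.953), and Trpm2, a cation channel (0.953). By Spearman's rho 5 of these 8 were again among the first 8, and within groups 4.

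Gene lists compiled for this liver spread from strong to no relation. The 20 phagocytic and lysosomal genes of macrophages had a median r of 0.87, with Cd68 at 0.910, Lyz2 (lysozyme) at 0.933 and the Fc receptor Fcgr1 at 0.852. The 16 other genes of resident Kupffer cells had a median of 0.81, with Folr2, a folate receptor, at 0.919, but Id3, a transcription factor of Kupffer cells, at 0.167 and the iron exporter Slc40a1 at 0.197. The 12 ligands of the CSF1 receptor and transcription factors of macrophages had a median of 0.52, from -0.62 (Tcf7l2) to 0.903 (Spi1, which encodes PU.1), with Irf8, another myeloid transcription factor, at 0.701 and the ligands Csf1 at 0.474 and Il34 at 0.661. Of the 13 monocyte and recruited macrophage genes tested 1 had an r above 0.8, and their median was 0.37, from -0.55 (Fn1) to 0.874 (Lgals3). The 15 listed genes summed to 2179 to 3125 CPM in a mouse, against 434 to 787 CPM for the 16 resident Kupffer cell genes. Which cells these transcripts came from was not tested. The complement genes that act with C1q had a median of -0.20, with C1ra lowest at -0.62, and hepatocyte markers -0.04.

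**Figure D4:**
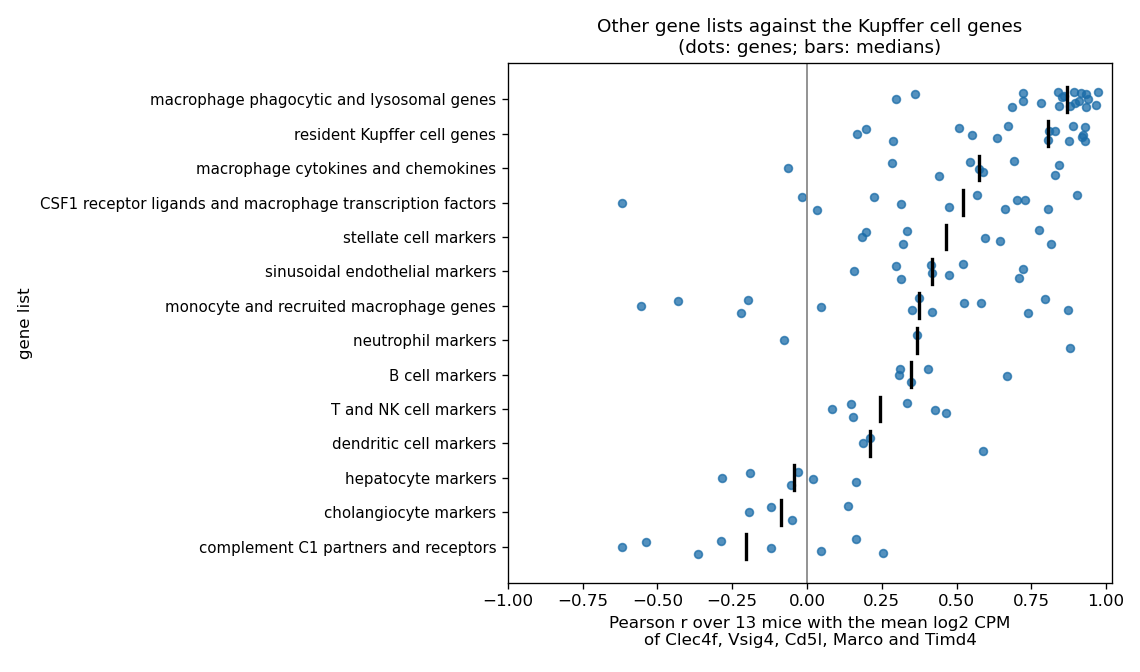
Pearson r over the 13 mice of single genes (dots) with the mean log2 CPM of Clec4f, Vsig4, Cd5l, Marco and Timd4 (horizontal axis, no unit), by gene list; bars are list medians. Phagocytic and lysosomal genes lie farthest to the right with a median of 0.87, and complement partners of C1q lie around -0.20.

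The first comparison asked whether induction of Asah1 in hepatocytes went with another level of macrophage transcripts, with Dox and ethanol in both groups (ASAH+ Etoh-Dox against ASAH- Etoh-Dox). All 10 genes had a mean log2 fold change below 0, from -0.64 (Marco) to -0.21 (C1qb), with a median of -0.27 against -0.0023 over all genes, and 50.7% of all genes tested had a value below 0. In edgeR's quasi-likelihood test 0 of the 10 passed an adjusted p of 0.1, as did 0.014% of all genes tested. At an unadjusted p under 0.05, 0 of 10 passed, against 2.86% of all genes, and DESeq2 called 0 of 10, against 0.0756% of the genes it adjusted. Clec4f had a log2 fold change of -0.29 ± 0.19 (SE), Cd5l -0.22 ± 0.27 and C1qa -0.25 ± 0.24, and edgeR's adjusted p was 1.00 for each. Between 6 and 11 of the 20 pairs of mice were higher in the ASAH+ mouse, and exact two-sided permutation p-values were 0.222 to 0.897, where 0.00794 was the smallest possible.

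The common direction rested on 1 mouse. Without ASAH- Etoh-Dox replicate 3 the median log2 fold change was 0.02, 5 genes were below 0 and 5 above, and Marco went from -0.64 ± 0.64 to 0.61 ± 0.45. The largest remaining value below 0 was -0.14 ± 0.19 for Clec4f. Without ASAH+ Etoh-Dox replicate 2, Clec4f and Vsig4 were lower at an unadjusted p under 0.05, 2 of 10 genes against 4.4% of all genes in either direction. The 95% interval of C1qa with all mice, taken as 1.96 SE to each side, ran from -0.72 to 0.21.

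The second comparison set ASAH+ mice with Dox against ASAH+ mice without it, so that Dox and the transgene product differ together (ASAH+ Etoh-Dox against ASAH+ Etoh). All 10 genes had a log2 fold change above 0, as had 53% of all genes, from 0.07 (Vsig4) to 0.96 (Marco), with a median of 0.42 against 0.013 over all genes. In edgeR 0 of the 10 passed an adjusted p of 0.1 (0.014% of all genes did), 0 passed an unadjusted p under 0.05 (7.29% of all genes did), and DESeq2 called 0 of the 7 to which it gave an adjusted p, Marco, Timd4 and Adgre1 having none (2.97% of all genes it adjusted). The 3 C1q genes were at 0.49 ± 0.24 (C1qa), 0.42 ± 0.24 (C1qb) and 0.48 ± 0.24 (C1qc), with edgeR adjusted p of 0.700 to 0.726. The 4 ASAH+ Etoh mice lay between the high mice (replicates 1 and 2) and the low mice (replicates 3 and 5) of the induced group for Clec4f, Vsig4, Cd5l, Timd4, Csf1r and Adgre1. The 3 C1q genes were higher at an unadjusted p under 0.05 without ASAH+ Etoh-Dox replicate 3 (3 of 10 genes, against 7.48% of all genes). They were also higher without replicate 5 (3 of 10, against 6.84%). They and Marco were higher without ASAH- Etoh-Dox replicate 3 (4 of 10, against 7.57%). That mouse is in neither group but in the fit that all groups share. These shares of all genes count both directions, and with all mice 4.05% of all genes were higher. Vsig4 had no stable direction: its value was -0.03 without replicate 1 and -0.09 without replicate 2 of the ASAH+ Etoh-Dox mice.

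The third comparison set the ASAH- mice with Dox against the uninduced ASAH+ mice, neither of which makes the transgene product (ASAH- Etoh-Dox against ASAH+ Etoh), so that Dox and genotype differ together. All 10 genes had a log2 fold change above 0, from 0.40 ± 0.25 (Vsig4) to 1.60 ± 0.70 (Marco), with a median of 0.63 against 0.016 over all genes, of which 53.2% were above 0. In edgeR 0 of 10 passed an adjusted p of 0.1, as did 0.014% of all genes, with adjusted p-values of 0.420 to 0.666, and DESeq2 called 0 with a lowest adjusted p of 0.138, against 1.49% of the genes it adjusted. At an unadjusted p under 0.05, 8 of the 10 were higher, against 5.08% of all genes tested. Vsig4 and Timd4 were the exceptions.

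C1qa was at 57.2 ± 18.2 CPM (SD, n = 4) in the ASAH- Etoh-Dox mice and 34.1 ± 5.12 CPM (n = 4) in the ASAH+ Etoh mice, a log2 fold change of 0.74 ± 0.25 (SE). C1qc differed by 0.71 ± 0.25, C1qb by 0.63 ± 0.25, Csf1r by 0.56 ± 0.24 and Clec4f by 0.50 ± 0.20. These 5 genes did not overlap between the groups, each ASAH- mouse lying above each ASAH+ mouse, which 3.09% of all genes tested did in this direction. The exact two-sided permutation p was 0.0286 for each, the smallest that 4 against 4 mice allow, and 0.171 after adjustment over the 30 exact tests. Adgre1 (0.80 ± 0.33) and Cd5l (0.64 ± 0.28) were higher in 15 of 16 pairs of mice.

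Without ASAH- Etoh-Dox replicate 3 all 10 log2 fold changes stayed above 0, and their median fell to 0.36. Marco then stood at 0.34 ± 0.47 and C1qa at 0.50 ± 0.23, C1qc at 0.41 ± 0.20 and C1qb at 0.37 ± 0.22, and Csf1r at 0.37 ± 0.23 and Clec4f at 0.35 ± 0.20. Adgre1 fell to 0.44 ± 0.29 and Cd5l to 0.31 ± 0.24, each higher in 11 of 12 pairs of mice. C1qa alone kept an unadjusted p under 0.05 in edgeR, 1 of 10 genes against 3.24% of all genes. Leaving out ASAH+ Etoh replicate 2, the lowest mouse for the 3 C1q genes, left 2 of 10 genes, C1qa and C1qc, at an unadjusted p under 0.05, against 3.86% of all genes higher in that fit. The number was 3 without ASAH+ Etoh replicate 3, 4 without ASAH+ Etoh replicate 4 and 4 without ASAH- Etoh-Dox replicate 4, the 3 C1q genes being among them each time. Over all fits that left out 1 mouse, 6.08 to 12.8% of all genes passed that p in either direction.

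**Figure D5:**
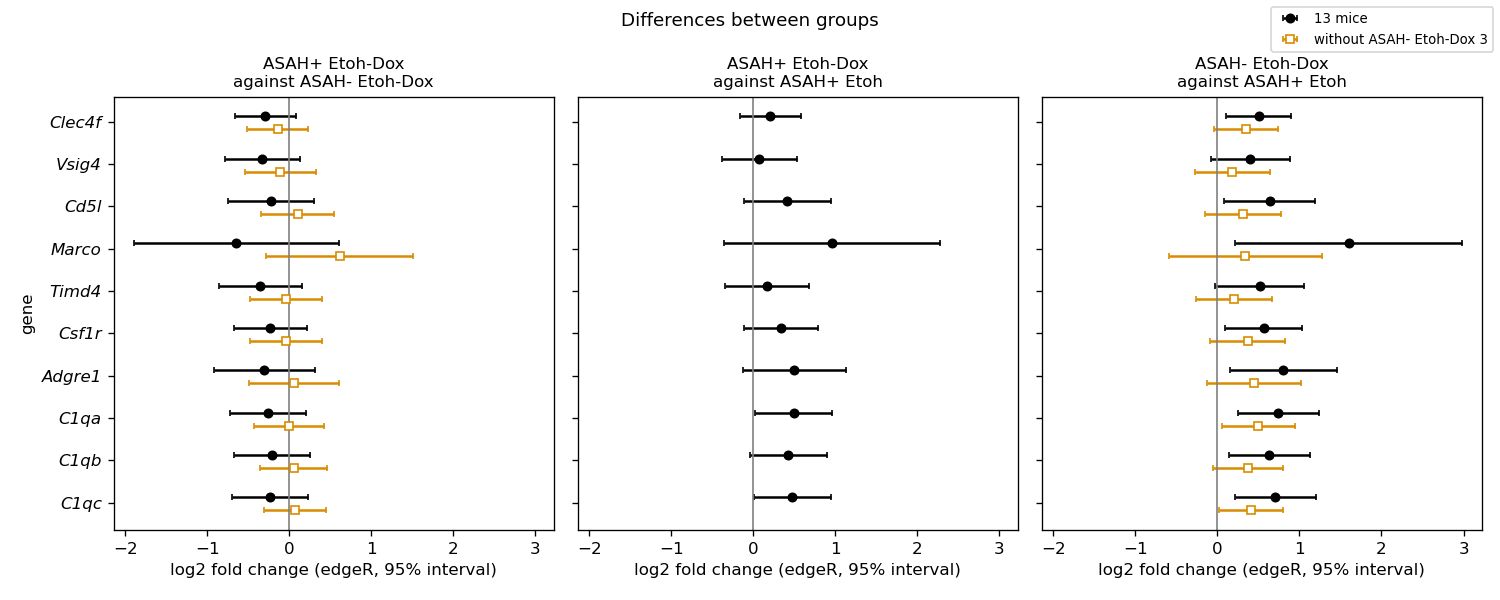
Log2 fold change from edgeR with 95% intervals taken as 1.96 SE to each side (horizontal axis) for the 10 genes in the 3 comparisons. Filled circles use all 13 mice and open squares leave out ASAH- Etoh-Dox replicate 3, which is not in the middle comparison. These intervals are narrower than edgeR's test implies. In the middle panel those of C1qa and C1qc exclude 0, although edgeR's unadjusted p was 0.0624 and 0.0693. In the left panel the squares lie on both sides of 0, and in the right panel circles and squares all lie above 0.

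Lists of other macrophage genes, complement genes and markers of other liver cells held 136 further genes, of which 121 had enough counts to be tested. Of these 121, 0 passed the threshold in edgeR in any of the 3 comparisons. Between ASAH- Etoh-Dox and ASAH+ Etoh mice, 53.2% of all genes tested had a log2 fold change above 0 and 46.8% below 0. At an unadjusted p under 0.05, 5.08% of all genes were higher and 4.11% lower. At that p, 8 of the 20 phagocytic and lysosomal genes were higher and 0 lower (median log2 fold change 0.56), among them Tyrobp (0.72 ± 0.25), Laptm5 (0.53 ± 0.23) and Cd68 (0.57 ± 0.24). Of the 16 other resident Kupffer cell genes 6 were higher and 0 lower, Folr2 by 0.59 ± 0.23 and Nr1h3, the liver X receptor alpha, by 0.17 ± 0.07. Of the 12 CSF1 receptor ligands and macrophage transcription factors 1 was higher and 0 lower, with 8 above 0 and 4 below (median 0.19), the one being Spi1 at 0.87 ± 0.29 (edgeR adjusted p = 0.409). Of the 8 complement genes tested that act with or bind C1q, 0 were higher and 3 lower, and all 8 had a value below 0.

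Most of these counts fell without ASAH- Etoh-Dox replicate 3, when 3.24% of all genes tested were higher and 2.84% lower. Of the 20 phagocytic and lysosomal genes 0 were then higher and 1 lower (median 0.31), of the 16 resident Kupffer cell genes 1 was higher and 0 lower (median 0.24), and of the 12 ligands and transcription factors 0 were higher or lower (median 0.10). The 1 lower phagocytic gene was Fcgr2b (-0.37 ± 0.17), which is also on the list of sinusoidal endothelial markers. Tyrobp was at 0.45 ± 0.22, Laptm5 at 0.27 ± 0.20, Cd68 at 0.34 ± 0.22, Folr2 at 0.38 ± 0.22, Nr1h3 at 0.13 ± 0.08 and Spi1 at 0.59 ± 0.27, each at an unadjusted p above 0.05. Of the complement genes 2 of 8 were lower and 7 of 8 had a value below 0.

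Over all genes tested in the same comparison with all mice, 53.2% had a value above 0. At an unadjusted p under 0.05, 5.08% were higher and 4.11% lower. Of the 13 monocyte and recruited macrophage genes tested, 10 had a value above 0 (median 0.27), with 2 higher and 1 lower at that p. Of the 9 macrophage cytokines and chemokines tested 8 had a value above 0 (median 0.24), with 0 at an unadjusted p under 0.05. Without ASAH- Etoh-Dox replicate 3, 0 of the 13 were higher and 1 lower (median 0.26), and 0 of the 9 passed that p (median 0.18). The 1 lower gene was Fn1 (-0.29 ± 0.11). Of all genes 3.24% were higher and 2.84% lower in that fit. With all mice Ccr2, the chemokine receptor of monocytes, was at -0.38 ± 0.40 and Ly6c2, a monocyte surface protein, at 0.37 ± 0.35. Il1b, the cytokine interleukin 1 beta, was at 0.43 ± 0.53 and Trem2, a lipid receptor of scar- and lipid-associated macrophages, at 0.27 ± 0.63. Without that mouse Ccr2 was at -0.61 ± 0.43 and Trem2 at -0.20 ± 0.67. Tnf, Il6, Il10, Ccl3, Ccl4, Cxcl2 and Nos2 had too few counts to be tested, as had Chil3 and Gpnmb, and Tnf did not exceed 0.762 CPM in any mouse.

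Markers of other liver cells moved with these results in part. ASAH- Etoh-Dox replicate 3 was also the highest of the 13 mice in the summed level of 9 sinusoidal endothelial markers (388 CPM, the others 186 CPM or more), of 8 stellate cell markers (456 CPM), of 6 hepatocyte markers and of 5 neutrophil markers (3 of them tested), while it ranked 8 for T and NK cell markers and 3 for B cell markers. The endothelial sums were 217 to 388 CPM in the ASAH- Etoh-Dox, 186 to 266 CPM in the ASAH+ Etoh-Dox and 239 to 329 CPM in the ASAH+ Etoh mice, and the stellate sums 402 to 456, 340 to 386 and 329 to 397 CPM. Between ASAH- Etoh-Dox and ASAH+ Etoh mice, 4 of 8 stellate, 3 of 5 B cell and 0 of 9 endothelial markers were higher at an unadjusted p under 0.05. Over all genes this share was 5.08%. Without replicate 3 the marker counts were 2 of 8, 1 of 5 and 0 of 9, and 3 of 9 endothelial markers were lower. Among these 3 was Fcgr2b, already counted above with the phagocytic and lysosomal genes. Of all genes 3.24% were higher and 2.84% lower in that fit. Of T and NK cell, hepatocyte and cholangiocyte markers, 1 of 6, 1 of 6 and 0 of 4 were higher with all mice. Without replicate 3 these were 0 of 6, 1 of 6 and 0 of 4. With and without replicate 3, all stellate, B cell, T and NK cell and cholangiocyte markers and 5 of 6 hepatocyte markers were above 0. With all mice 53.2% of all genes were above 0. Endothelial markers above 0 were 4 of 9 with all mice and 0 of 9 without replicate 3. In the comparison of ASAH+ with ASAH- genotype under Etoh-Dox, all 10 macrophage genes were below 0, as were 50.7% of all genes. So were 9 of 9 endothelial, 8 of 8 stellate, 6 of 6 hepatocyte and 4 of 4 cholangiocyte markers. At an unadjusted p under 0.05, 5 endothelial, 3 stellate, 2 hepatocyte and 0 cholangiocyte markers were lower, against 1.57% of all genes. Without ASAH- Etoh-Dox replicate 3, where 5 of the 10 macrophage genes were below 0, so were 8 of 9 endothelial, 8 of 8 stellate, 6 of 6 hepatocyte and 4 of 4 cholangiocyte markers, of which 1, 1, 3 and 1 were lower at that p, against 1.13% of all genes. Between ASAH+ Etoh-Dox and ASAH+ Etoh mice 6 of 9 endothelial markers were lower, against 3.24% of all genes, and 0 of 8 stellate markers were higher or lower at that p. B cell and T cell genes were near the limit of detection, with Cd79a at 0.138 to 1.40 CPM and Cd3e at 0.230 to 0.937 CPM. The part of these cells in the macrophage results was not tested.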

How the data were processed

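Whole-liver poly(A) RNA of 13 mice was sequenced as single reads, which the authors quantified against GENCODE M19 transcripts (GRCm38.p6) using salmon, with tximport to sum to genes. The values they deposited are estimated counts, unscaled and rounded to whole numbers. Symbols and gene positions are those of GENCODE M21, GRCm38 (53355 of 53392 identifiers matched). Reads shared between transcripts are divided by estimation, and the transcript lengths per mouse were not used.

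In R 4.3.3, edgeR 4.0.16 was run with its count filter (14317 genes), TMM scaling and a robust quasi-likelihood fit that gave each of the 3 groups a mean and used every mouse. Benjamini-Hochberg adjustment covered all tested genes, with 0.1 as the threshold. Single genes were also compared by exact two-sided permutation of mean log2 CPM (prior count 2), and correlations by 100000 permutations. The replicates are separate mice. DESeq2 1.42.0 was an alternative, and both were tested on simulated data.

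The 10 genes and all lists were chosen with earlier results of these data known. Genes named were the 10, Asah1, 25 fixed genes of macrophages and other liver cells, any other listed gene past the threshold, and the 8 genes with the highest r with the Kupffer cell markers. C1ra, Tcf7l2, Fn1, Lgals3 and Fcgr2b were named after their values were seen. Counting error is a lower bound of technical error, since reads carry no molecular identifiers.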

Additional observations from a re-analysis of the deposited data

Results flagged for a closer look

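Of 30 combinations of gene and group, 4 held 1 mouse whose gap to the nearest other mouse took most of the group's range (Dixon's test at 95%), where chance flags about 5%. In ASAH- Etoh-Dox replicate 3, Marco was at 91.5 CPM, C1qa at 84.2 CPM and C1qc at 75.5 CPM, and in ASAH+ Etoh replicate 3, Timd4 was at 8.86 CPM, in a group whose other 3 mice lay between 7.97 and 8.02 CPM. The 3 genes of ASAH- Etoh-Dox replicate 3 correlate and are not independent of each other.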

How the results depend on the processing

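None of the 10 genes was called in any of the 3 comparisons under the 20 other fits tried per comparison or at an adjusted p of 0.05. Depth set little limit for these genes, whose lowest count (138, Timd4) has a counting error of 8.51%. The lowest adjusted p of any of them was 0.138 (DESeq2, ASAH- Etoh-Dox against ASAH+ Etoh). The count over all genes, 2 in each comparison in edgeR, depended more on the method. On simulated data 20.4 to 23.5% of DESeq2's calls were false, against 6.9 to 11.4% of edgeR's. DESeq2 recovered more of the changed genes there, 76.5 to 82% against 67.5 to 74.5%. The simulated counts were drawn with edgeR's own estimates of spread, so they cannot decide between the 2 methods for these data. For ASAH+ against ASAH- on Etoh-Dox the count was 12 in DESeq2, 1 with Asah1 left out of the totals, 1 with the 2 groups alone, 1 with the replicate block, and 1 to 2 with a mouse left out. For ASAH+ Etoh-Dox against ASAH+ Etoh it was 95 in DESeq2, 1 with Asah1 left out, 4 without the count filter, and 2 to 8 with a mouse left out, 8 being without ASAH+ Etoh replicate 2. For ASAH- Etoh-Dox against ASAH+ Etoh it was 150 in DESeq2, 1 with the clock covariate (the log2 ratio of Dbp to Arntl), 0 with the 2 groups alone, 0 with the replicate block, 0 at an adjusted p under 0.05, and 0 to 2 with a mouse left out. Asah1 was called in the first 2 of these comparisons with all genes in the totals. It was not among the genes tested when left out, so its own call was lost there by construction. The cause of the other moves was not tested.

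The number of the 10 genes at an unadjusted p under 0.05, a count added after seeing the data, ran from 1 (without ASAH- Etoh-Dox replicate 3) to 9 with a mouse left out in the third comparison, where it was 8, and was 4 without the count filter and 4 with the replicate block. Of all genes, 9.19% passed that p in either direction with all mice, 5.56% without the count filter, 7.17% with the block and 6.08 to 12.8% with a mouse left out. In the second the number was 2 in DESeq2 (4.31% of all genes), 1 with the clock covariate (8.81%), 2 with the 2 groups alone (7.74%) and 0 to 4 with a mouse left out (5.23 to 8.27%). In the first it was 0 to 2 with a mouse left out (2.12 to 4.98%). Replicate numbers belong to different mice. The deviations of same-numbered mice correlated at -0.05 on average (12 pairs, -0.26 to 0.19). Those of other pairs correlated at 0.01 on average (44 pairs, -0.29 to 0.31). Whether mice were paired by litter or by feeding was not tested.

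The 10 genes, Asah1 and Clec4g in each comparison were followed through every fit. So were the other genes named and tested in the third, except those named after their values were seen. Among these 43 genes, leaving out 1 mouse gave log2 fold changes on both sides of 0 for 11. In the first comparison these ran from -0.33 to 0.10 for Cd5l, -0.95 to 0.61 for Marco, -0.48 to 0.059 for Adgre1, -0.33 to 0.055 for C1qb and -0.36 to 0.069 for C1qc, each value above 0 being without ASAH- Etoh-Dox replicate 3. Vsig4 ran from -0.089 to 0.18 in the second. In the third the ranges were -0.27 to 0.014 for Slc40a1, -0.20 to 0.64 for Trem2, -0.14 to 0.34 for Stab2, -0.32 to 0.0066 for Clec4g and -0.14 to 0.27 for Lrat, which was also at -0.0108 with the clock covariate. Over all fits of these genes, 16 values turned and 1320 kept their direction and side of the threshold. Other listed genes turned too: in the first comparison, without ASAH- Etoh-Dox replicate 3, 7 of the 20 phagocytic and lysosomal genes were above 0, against 0 with all mice, and 7 of the 16 resident Kupffer cell genes, against 2. Clec4g passed in DESeq2 in the second comparison (-0.52, adjusted p = 0.0802).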
